A study of Homo sapiens with 3 samples.

Results

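The genes described here encode assembly factors of the 60S ribosomal subunit, the proteins that build the large subunit in the nucleolus and nucleus and then leave it. They were chosen by name as 45 genes of the 58735 in the table, and all 45 were found. A mean of at least 1 FPKM (a fragment count scaled to gene length and library size) over the 3 libraries was met by 44 of the 45, among 13852 genes that met it in all. NOP2 was the exception.

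RNA-seq was done on HGC-27 cells, a line long kept in culture from a human gastric cancer, in 1 library labelled shControl (genotype WT) and 2 labelled shUSP16-1 and shUSP16-2 (genotype shUSP16). USP16 encodes a deubiquitinase known for removing ubiquitin from histone H2A. The labels do not say whether the shUSP16 libraries come from different hairpins or from repeats of 1 hairpin, and do not state that they were grown as separate cultures. The spread that the p-values rest on may therefore be technical. All 3 libraries carry the same protocol text, with growth in medium with serum and a course of dexamethasone, isobutylmethylxanthine and insulin, and whether the cells received that course cannot be told from it.

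Assembly of the large subunit begins on the nascent pre-rRNA, where factors fold the RNA, add ribosomal proteins and cut out the internal transcribed spacers. Helicases and GTPases then drive remodelling steps, the AAA ATPase midasin strips early factors, and an adaptor takes the particle through the nuclear pore. Many of these genes are textbook targets of the transcription factor MYC, and growing tumour cells usually express them at high levels.

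The recovered read totals were 30131136 for shControl, 29530581 for shUSP16-1 and 31187845 for shUSP16-2. USP16 itself stood at 6.28 FPKM in the control, 4.29 in shUSP16-1 and 5.98 in shUSP16-2. Its level in shUSP16-1 was 0.683 times that of shControl (95% interval 0.621 to 0.749), but in the library labelled shUSP16-2 it was 0.952 times (0.875 to 1.04). These intervals, and those below, are exact binomial intervals on reads and cover counting error only. The targeted gene therefore backs the label of shUSP16-1 and not clearly that of shUSP16-2 (0.876 times, 0.805 to 0.953, when scaled by the sums of reads), and limma gave a difference of -0.26 (SE 0.20) for both together, adjusted p = 0.564. Epithelial markers were nearly absent: of the 10 listed, KRT19, MUC5AC, TFF1 and TFF2 were at 0 in all 3 libraries, and the list summed to 2.60, 2.60 and 2.47 FPKM. That sum is mostly CDX2, at 1.64, 2.06 and 2.17 FPKM, while EPCAM (0.598, 0.399 and 0.154), CLDN18 (0.238, 0.0690 and 0.0915) and KRT8 (0.121, 0.0584 and 0.0422) were lower in both shUSP16 libraries, and CDH1 and KRT18 had at most 2 reads in a library. The mesenchymal list summed to 256, 269.8 and 322 FPKM, but its genes did not all move alike: VIM was at 155, 159 and 180.2 FPKM and COL1A1 at 52.2, 71.1 and 78.4, while LUM (32.2, 22.9 and 38.3) and DCN (9.51, 8.71 and 12.2) were lowest in shUSP16-1. Of the 44 tested 60S factors, 31 were higher in shUSP16-2 than in shUSP16-1, against 52.2% of all tested genes and 53.4% of protein-coding ones. Summed levels of the adipocyte list were 3.44, 4.18 and 2.88 FPKM (ADIPOQ and LEP at 0), of the immune list 0.981, 1.20 and 0.961 (PTPRC, CD3E and MS4A1 at 0) and of the endothelial list 0.0207, 0.0193 and 0.0124. The adipocyte sum is mostly CEBPA, at 2.39, 2.91 and 2.35 FPKM. PPARG (0.440, 0.797 and 0.135) and PLIN1 (0.186, 0.194 and 0.0595) were also lowest in shUSP16-2, and LPL (0.287, 0.244 and 0.302) was highest there. CIDEC and FABP4, with at most 4 reads in a library, were lower in both shUSP16 libraries. Within the immune list CD14 had 0, 24 and 19 reads and NKG7 29, 19 and 18. The share of reads on mitochondrial genes was 13.2% in the control, 11.8% and 11.3% in the others. The part of these differences in the results below was not tested. In bulk RNA, more RNA per cell and a changed mix of cells cannot be told apart.

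The 60S assembly factors were higher in both shUSP16 libraries than in shControl for 42 of the 44 tested. Among all tested genes 44.9% were higher in both, and among tested protein-coding genes 50.2%. NMD3 was lower in both, as were 32.4% of all tested genes, and BRIX1 was lower in shUSP16-1 and higher in shUSP16-2. The differences were of moderate size: the median of their FPKM ratios to the control was 1.27 for shUSP16-1 and 1.37 for shUSP16-2, and single ratios ran from 0.918 to 1.72 in the first and from 0.866 to 2.12 in the second. On the log2(FPKM + 1) scale, which understates the change of low genes, the median difference was 0.31 and 0.44, against 0.04 and 0.04 over all tested genes and 0.06 and 0.07 over tested protein-coding genes. Every one of these differences is taken from the same single shControl library. In that library 28 of the 45 were above 10 FPKM, 10 above 20 and 3 above 50. Across the 44 genes, which share these libraries, Spearman's rho of the mean log2 ratio was 0.10 with the shControl level and -0.32 with gene length.

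**Figure D1:**
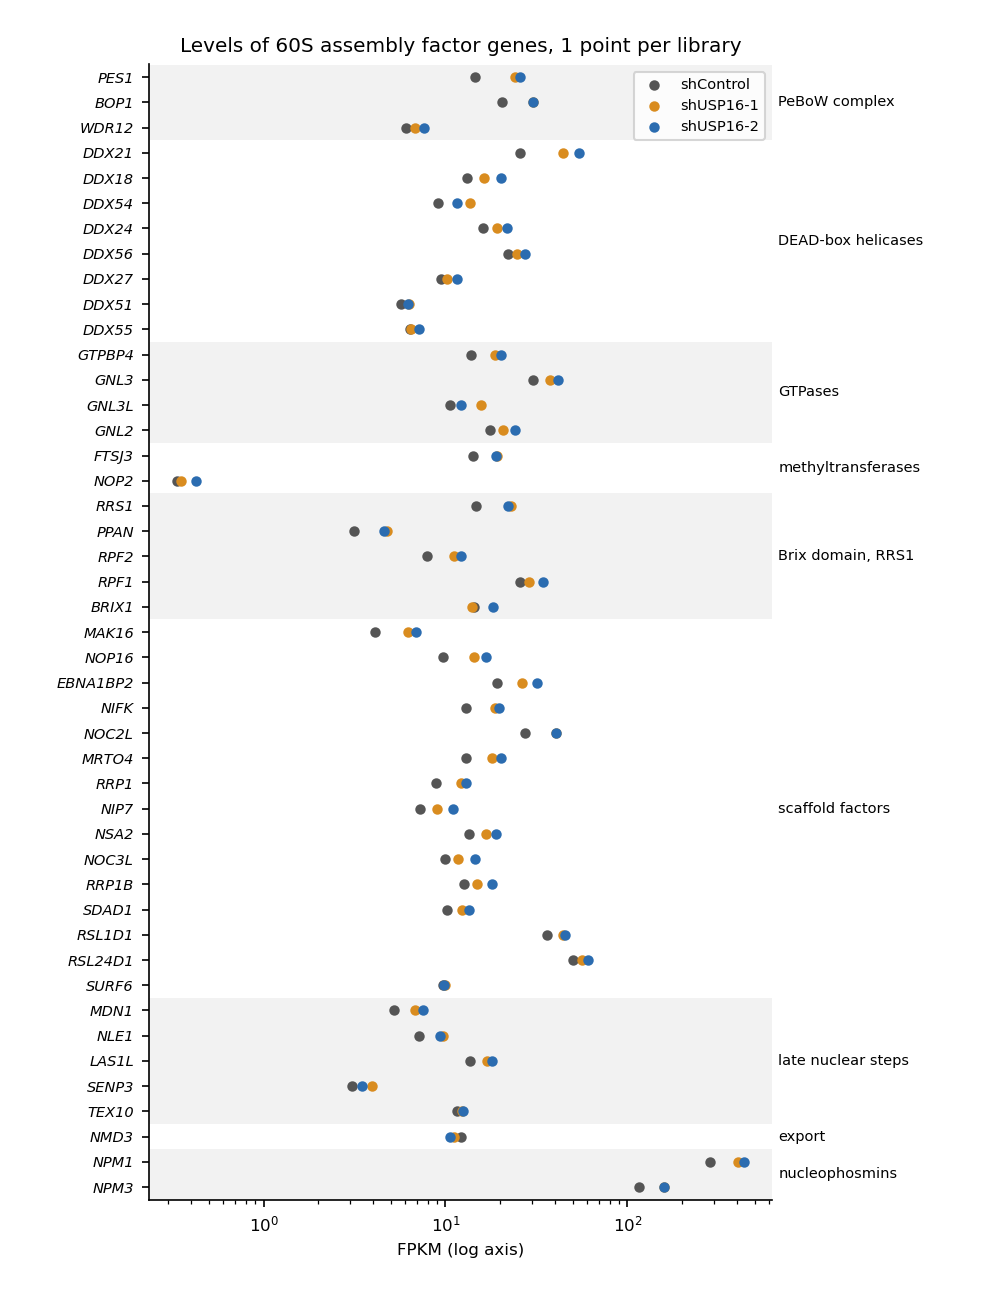
FPKM (log axis) of the 45 genes in rows by role, with 1 point per library and no error bars. In 42 of the 44 tested genes both shUSP16 points lie to the right of the shControl point, and NOP2 lies below 1 FPKM in every library.

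By size, 22 of the 44 were at least 25% higher in both libraries, compared with 9.54% of all tested genes and 9.27% of protein-coding ones. At 1.5-fold, 3 remained, DDX21, MAK16 and PES1, against 2.04% of all and 1.23% of protein-coding genes, and at 2-fold there were 0. The 1.5-fold count moves with the library: 11 members were past it in shUSP16-2 taken alone and 5 in shUSP16-1 taken alone. The shares of all tested genes past it in 1 library alone were not counted, so these counts cannot be set against other genes. The 95% interval of the ratio lay above 1 in both libraries for 39 members, against 28.0% of all tested genes and 33.4% of protein-coding genes, and below 1 in both for NMD3 alone, against 15.1% and 14.1%. The authors' FPKM do not scale by the sums of the recovered reads, and scaling by those sums changed each log2 ratio by -0.09 for shUSP16-1 and by -0.12 for shUSP16-2. Under it 40 members were higher in both (31.3% of all tested genes) and 33 had an interval above 1 in both (17.0%). By construction such a rescaling leaves the distance between the members' median log2 ratio and that of all genes as it was, 0.29 for shUSP16-1 and 0.41 for shUSP16-2.

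**Figure D2:**
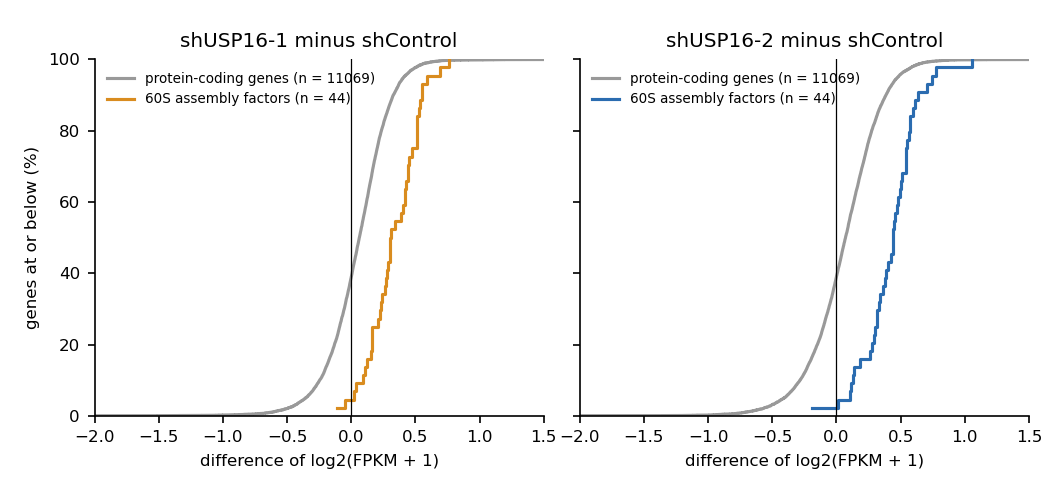
Cumulative share of genes (y axis, %) at or below each difference of log2(FPKM + 1) from shControl (x axis), 1 panel per shUSP16 library, for the 44 tested 60S assembly factors and for all tested protein-coding genes. The medians of the factors, 0.31 and 0.44, lie to the right of those of protein-coding genes, 0.06 and 0.07.

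With 1 control library the test had 1 residual degree of freedom. The limma test on log2(FPKM + 1) called 0 of the 44 at an adjusted p under 0.05, as it called 0% of all tested genes, although 26 members and 2008 of all 13852 genes had an unadjusted p under 0.05. Members' limma adjusted p ran from 0.272 to 0.938. When only protein-coding genes were tested, limma called DDX21 and PES1 higher (0.154% of 11069 genes). The voom test on the recovered reads called 7 members higher with the authors' totals (1.47% of genes) and the same 7 with sums of reads (1.00%): BOP1, DDX21, EBNA1BP2, NOC2L, NOP16, NPM1 and PES1. "Rose" is used below for these 7, by the voom tests alone, and limma over all tested genes did not call them. Voom adjusted p-values of members printed below use the authors' totals. By sums of reads those of BOP1, EBNA1BP2, NOC2L, NOP16 and NPM1 were nearer the threshold, and those of DDX21 and PES1 farther from it.

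In the PeBoW complex, whose 3 subunits PES1, BOP1 and WDR12 act together in processing the large-subunit pre-rRNA, all 3 were higher in both libraries, with a median ratio of 1.48 in each. PES1, the scaffold of the complex, is on GRCh38 at chr22:30576625-30607083 and stood at 14.5 FPKM in shControl, 24.1 in shUSP16-1 and 25.6 in shUSP16-2. Both shUSP16 values were far above the control and close to each other (24.9 ± 1.06, SD, n = 2). It rose, with a limma log2 difference of 0.74 (SE 0.12, adjusted p = 0.272 over all tested genes), or adjusted p = 0.0459 over protein-coding genes in limma and 0.00602 by voom. BOP1, the WD-repeat subunit, rose from 20.4 FPKM to 30.3 and 30.1, 1.48 times in each (voom adjusted p = 0.0296). WDR12, the third subunit, was at 6.03, 6.83 and 7.63 FPKM, ratios of 1.13 and 1.26, and was not called by any of these tests.

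The 8 DEAD-box RNA helicases, ATP-driven enzymes that open RNA duplexes, were all higher in both libraries, with median ratios of 1.16 and 1.26, and 1 was called. DDX21, a nucleolar helicase with roles in both rRNA transcription and processing, lies at chr10:68956128-68985073 and was at 25.6 FPKM in shControl, 44.1 in shUSP16-1 and 54.3 in shUSP16-2. It had the largest ratios of the 44 in each library, 1.72 (95% interval 1.66 to 1.79) and 2.12 (2.04 to 2.20), and shUSP16-2 was also above shUSP16-1 (ratio interval 1.19 to 1.27). The limma difference was 0.91 (SE 0.16, adjusted p = 0.272 over all tested genes), with adjusted p = 0.0292 over protein-coding genes in limma and 0.00149 by voom.
DDX18 is a helicase of early 60S particles and was at 13.2, 16.3 and 20.2 FPKM. DDX54 was at 9.05, 13.6 and 11.5 FPKM, so that shUSP16-1 was the higher. Its ratio of shUSP16-2 to shUSP16-1 had an interval below 1 (0.799 to 0.907). Such an interval lay below 1 in 2 members and in 3157 of all 13852 tested genes. It lay above 1 in 26 members and in 3772 of all tested genes. By sums of reads it lay below 1 in 4 members (3644 of all) and above 1 in 22 (3206 of all). DDX24 was at 16.1, 19.1 and 21.9 FPKM.
The helicases DDX56, DDX27, DDX51 and DDX55 showed the smaller differences, with ratios from 1.02 (DDX55 in shUSP16-1) to 1.24 (DDX56 in shUSP16-2). With the authors' totals DDX55 alone of the 8 had an interval that reached below 1, 0.935 to 1.10 in shUSP16-1. By sums of reads 5 of the 8 had an interval above 1 in both libraries. The lower bound then also fell below 1 for DDX27 (0.947 in shUSP16-1) and DDX51 (0.954 and 0.924).

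The nucleolar GTPases, switch enzymes that mark the order of assembly steps, were all 4 higher in both libraries, with median ratios of 1.30 and 1.37 and 0 called. GTPBP4, which acts on early nucleolar particles, was at 13.8, 18.8 and 20.2 FPKM. GNL3 (nucleostemin, also known for its role in stem and tumour cell growth) was at 30.2, 37.7 and 41.3 FPKM, and GNL2 at 17.5, 20.8 and 24.1. In these 3 genes shUSP16-2 was the highest library. GNL3L, a paralogue of GNL3, went the other way, with 10.6 FPKM in shControl, 15.6 in shUSP16-1 and 12.2 in shUSP16-2, and the ratio of shUSP16-2 to shUSP16-1 was 0.783 (95% interval 0.719 to 0.853). On the log2(FPKM + 1) scale the widest gaps between the shUSP16 libraries among the tested members were those of BRIX1, GNL3L and DDX21, in that order. GNL3 holds 6 annotated snoRNA genes within its span, PPAN 2 and DDX55 1.

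Of the rRNA methyltransferases, FTSJ3, which methylates the ribose of pre-rRNA, was at 14.2 FPKM in shControl, 19.1 in shUSP16-1 and 18.9 in shUSP16-2. NOP2, the cytosine methyltransferase of the large-subunit rRNA, was at 0.334, 0.350 and 0.427 FPKM from 51, 49 and 62 reads and was not tested. Its ratios, 1.05 (0.693 to 1.58) and 1.28 (0.867 to 1.89), had intervals that span 1. In the annotation 54.4% of its exon length lies on the same strand as AC006064.6, a gene listed at 0 reads in all 3 libraries, so how its reads were assigned is uncertain.

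Among the Brix-domain proteins and RRS1, which bring in or hold RNA and the 5S particle, 4 of 5 were higher in both libraries, with median ratios of 1.40 and 1.47. RRS1, which with RPF2 recruits the 5S ribonucleoprotein, was at 14.8, 22.8 and 22.1 FPKM, and RPF2 was at 7.91, 11.1 and 12.2 FPKM. RPF1 was at 25.7, 28.9 and 34.3 FPKM. PPAN was at 3.14, 4.75 and 4.62 FPKM, but 59.8% of its exon length is shared on the same strand with other genes, chiefly the read-through gene PPAN-P2RY11. BRIX1 was the 1 member of mixed direction: 14.4 FPKM in shControl, 13.9 in shUSP16-1 (ratio 0.964, 0.908 to 1.02) and 18.2 in shUSP16-2 (ratio 1.26, 1.19 to 1.33). The limma difference of BRIX1 was 0.13 (SE 0.18, adjusted p = 0.763).

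**Figure D3:**
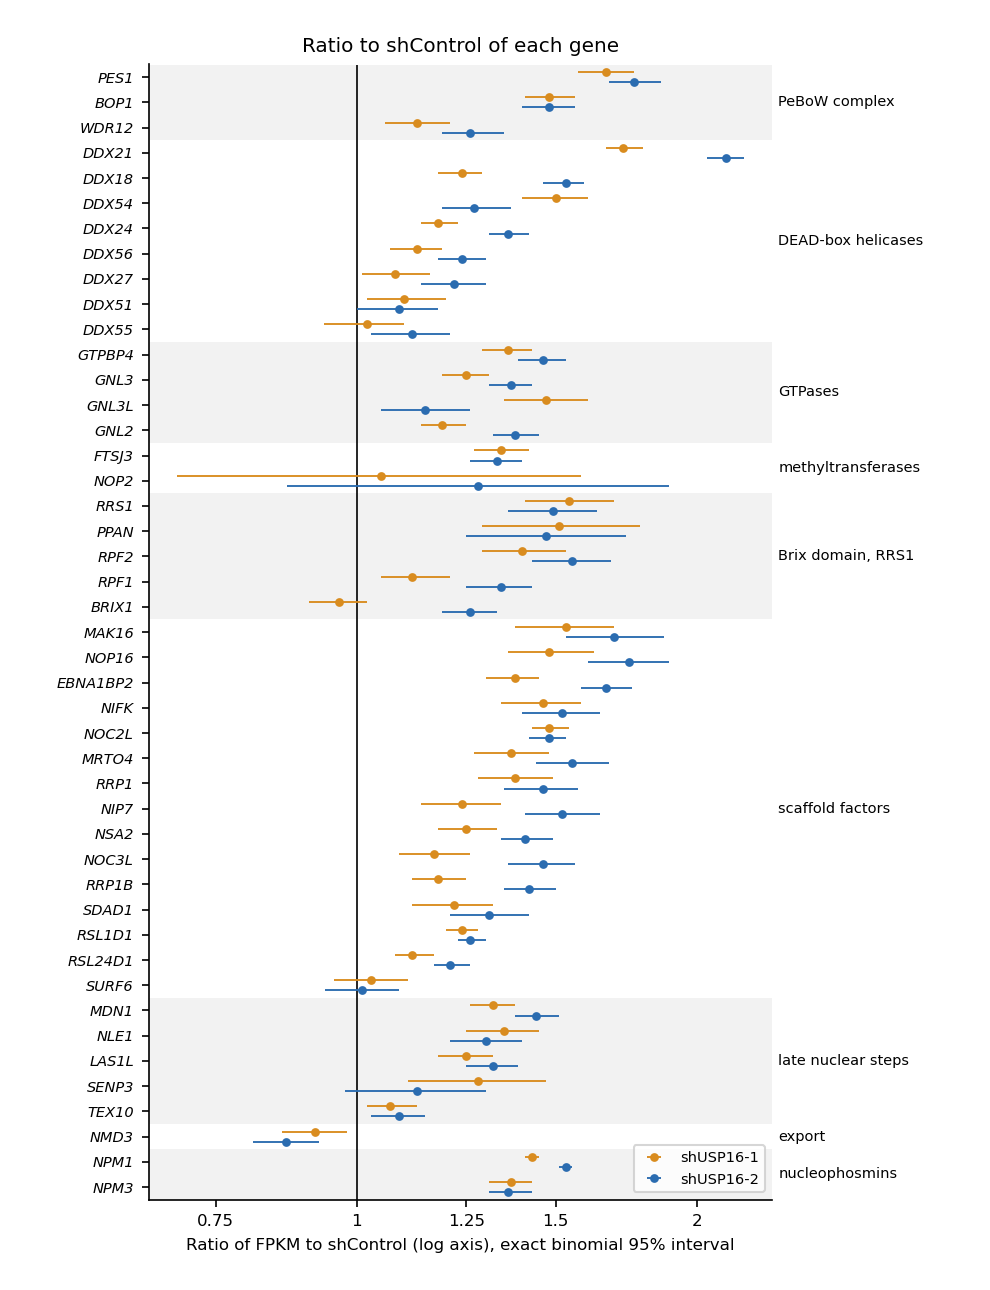
FPKM ratio to shControl (log axis) of the 45 genes in each shUSP16 library, with 95% exact binomial intervals that cover counting error only. DDX21 has the highest ratios, 1.72 and 2.12, and NMD3 lies below 1 in both libraries.

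The 15 scaffold and structural factors, which hold the RNA domains of the early particle, were all higher in both libraries, with median log2 differences of 0.30 and 0.50, and 3 of them rose. NOP16 was at 9.67 FPKM in shControl, 14.4 in shUSP16-1 and 16.8 in shUSP16-2 (voom adjusted p = 0.0350). EBNA1BP2, a nucleolar protein of the early particle, was at 19.1, 26.3 and 31.8 FPKM (voom adjusted p = 0.0337). NOC2L, whose yeast counterpart escorts precursors to the nucleoplasm and which is also known as a histone acetyltransferase inhibitor, was at 27.3, 40.4 and 40.3 FPKM (voom adjusted p = 0.0255). In each of these 3 both shUSP16 values were more than 25% above the control.
MAK16 was at 4.08, 6.22 and 6.89 FPKM, ratios of 1.53 and 1.69, and was 1 of the 3 members past 1.5-fold in both, though its voom adjusted p was 0.0521. MAK16 shares 19.2% of its exon length with TTI2 on the opposite strand, which had 471, 330 and 372 reads. NIFK, a nucleolar protein that binds Ki-67, was at 12.9, 18.8 and 19.6 FPKM. MRTO4, which holds the place of the stalk protein P0, was at 13.0, 17.9 and 20.2 FPKM. RSL24D1, the place holder of RPL24, was at 50.1, 56.3 and 60.8 FPKM, one of the higher levels with one of the smaller ratios, 1.12 and 1.21.
NOC3L was at 9.97, 11.7 and 14.5 FPKM and RRP1B at 12.6, 14.9 and 18.0 FPKM, both higher in shUSP16-2 than in shUSP16-1. NSA2, at 13.4, 16.8 and 18.9 FPKM, shares 58.7% of its exon length with genes on the opposite strand, so reads of the strands may not be told apart. SURF6 was at 9.71, 9.98 and 9.80 FPKM, the smallest difference of the 15, and its intervals span 1 in both libraries. RRP1 (8.86, 12.2 and 12.9 FPKM), NIP7 (7.22, 8.94 and 11.0), SDAD1 (10.2, 12.4 and 13.4) and RSL1D1 (36.0, 44.5 and 45.5), the last also known for holding back senescence, lay between these extremes.

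Among the late nuclear factors, which remodel the particle and cut the second internal spacer, all 5 were higher in both libraries, with median ratios of 1.28 and 1.30 and 0 called. MDN1, the giant AAA ATPase midasin, was at 5.19, 6.83 and 7.48 FPKM. NLE1, its substrate on the particle, was at 7.19, 9.70 and 9.36 FPKM. LAS1L, which with its kinase partner cuts the spacer, was at 13.6, 17.0 and 17.9 FPKM. SENP3, the SUMO protease of this step, was at 3.08, 3.94 and 3.47 FPKM, with an interval of 0.976 to 1.30 in shUSP16-2. On its strand 41.2% of its exon length is shared with the read-through gene SENP3-EIF4A1. TEX10 was at 11.5, 12.3 and 12.5 FPKM.

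NMD3, the adaptor that links the particle to the exportin, stood apart in direction: 12.2 FPKM in shControl, 11.2 in shUSP16-1 and 10.6 in shUSP16-2. Its ratios were 0.918 (0.859 to 0.981) and 0.866 (0.810 to 0.926), both below 1, while its limma difference of -0.15 (SE 0.12, adjusted p = 0.589) was not called.

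The nucleophosmins, histone chaperones abundant in the nucleolus, were the most abundant members. NPM1 was at 284 FPKM in shControl, 407 and 436 in the shUSP16 libraries, the largest level of the 45. It rose by the voom test (adjusted p = 0.0159), while its limma difference of 0.57 (SE 0.10) had an adjusted p of 0.272 over all tested genes and 0.0573 over protein-coding ones. It has 45 named pseudogenes whose reads (810, 944 and 1075) were few beside its own 35394, 46506 and 51690, and adding them left the ratios at 1.43 and 1.53. NPM3 was at 116, 159 and 159 FPKM. The 44 tested factors and NOP2 summed to 998, 1334 and 1428 FPKM, and to 714, 928 and 992 FPKM without NPM1.

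Other genes of ribosome production, from lists chosen with earlier results known, are given beside them. Medians are on the log2(FPKM + 1) scale, and voom calls use the authors' totals unless sums of reads are named. Over all tested genes, 44.9% were higher in both, 32.4% lower in both and 1.47% called higher by voom. By sums of reads 31.3% were higher in both, 6282 of 13852 lower in both and 1.00% called higher by voom. Of 25 other nuclear 60S factors tested, 22 were higher in both and 0 lower in both, with medians of 0.30 and 0.30, and voom called 5 higher. By sums of reads 19 were higher in both and 3 lower in both, and voom called 3. URB2, a large nucleolar protein, was at 2.79, 4.61 and 5.76 FPKM, and CCDC86 at 5.19, 8.06 and 10.2. Of 45 small subunit processome genes, which build the other subunit, 42 were higher in both and 2 lower in both (41 and 2 by sums of reads). Their medians were 0.31 and 0.46, and voom called 8 higher (6 by sums of reads). SNU13 was at 26.3, 41.2 and 44.2 FPKM.
RRP7A, another processome gene, was at 9.22, 14.6 and 15.2 FPKM, whereas IMP3 was at 9.42, 8.77 and 8.94 and UTP3 at 24.9, 23.3 and 24.9. Late 40S factors gave 11 of 12 higher in both and 0 lower in both (8 and 2 by sums of reads), medians 0.23 and 0.35, and voom called 1; PNO1, which guards the end of the small-subunit RNA, was at 9.96, 15.8 and 17.2 FPKM and RRP12 at 7.93, 10.5 and 12.9. Ribosomal proteins of the large subunit had medians of 0.16 and 0.21, with 39 of 47 higher in both, 3 lower in both and 1 called by voom. By sums of reads 31 were higher in both and 7 lower in both, the median log2 ratios were 0.07 and 0.09 in place of 0.16 and 0.21, and voom called 0 higher. RPL24 was at 173, 241 and 243 FPKM, RPL7 at 325, 402 and 405, and RPL36A at 10.4, 8.10 and 9.44.
Cytoplasmic 60S factors gave 6 of 8 higher in both and 1 lower in both (5 and 2 by sums of reads). Their medians were 0.11 and 0.21, with 0 called. EIF6, which keeps subunits apart, was at 22.6, 30.7 and 26.4 FPKM and PA2G4 at 47.4, 61.1 and 69.3. EFL1, which releases EIF6, was at 7.31, 7.05 and 7.21 FPKM. RNA polymerase I factors gave 10 of 14 higher in both and 4 lower in both (9 and 5 by sums of reads). Their medians were 0.21 and 0.26, with 1 called (0 by sums of reads). UBTF was at 19.6, 28.1 and 29.0 FPKM and TTF1 at 8.15, 7.50 and 7.36. In the MYC network 3 of 9 were higher in both and 5 lower in both (2 and 5 by sums of reads). Its medians were -0.05 and -0.17, with 0 called (1 lower by sums of reads, as were 418 of all 13852 tested genes). MYC itself was at 114, 143 and 149 FPKM (limma 0.36, SE 0.11, adjusted p = 0.292). MXD1, a MAX partner that represses MYC targets, was at 4.15, 2.85 and 2.40 FPKM. Of the rest of this network, MAX was higher in both libraries and MYCL lower in both. Any link of these levels to the 60S factors was not tested. In limma over all tested genes, 0 genes of these lists were called.

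**Figure D4:**
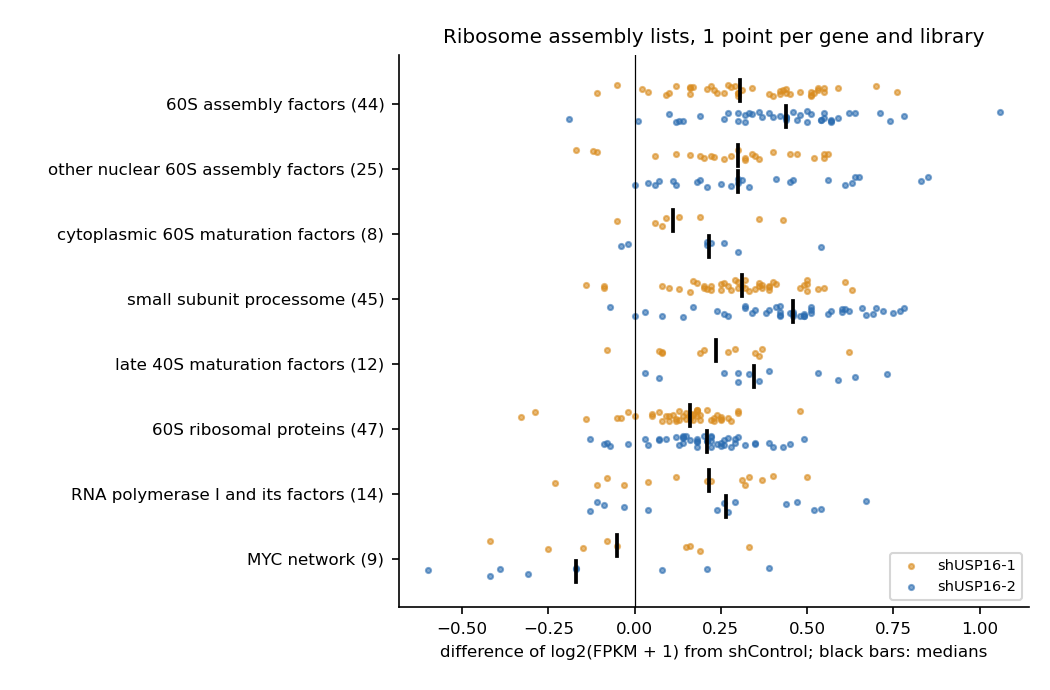
Differences of log2(FPKM + 1) from shControl in each shUSP16 library for the genes of 8 lists, 1 point per gene and library, black bars at the medians. The 60S assembly factors (medians 0.31 and 0.44) and the small subunit processome (0.31 and 0.46) lie farthest to the right, and the MYC network has medians below 0.

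Since 42 of the 44 genes were higher in both libraries, their promoters were compared for shared motifs. The RefSeq table (GRCh38.p14, 300-base windows from 250 bases before to 50 after the first listed start) held 38 of the 45 (not BOP1, DDX18, MAK16, RPF2, RRP1B, RRS1 or RSL1D1), and the comparison set was 8860 tested protein-coding genes. The E-box CACGTG, the motif MYC and MAX bind, and the ETS motif CCGGAAG, found on either strand (its reverse spelling is CTTCCGG), were searched. A match only means that these letters occur in the window. An E-box was present in 12 of the 38 (31.6%) against 10.3% of the 8860, and the ETS motif in 16 (42.1%) against 20.4%; 3 members held both and 13 neither. In other lists, 16 of 38 small subunit processome promoters held the E-box (42.1%), and so did 2 of 38 of the 60S ribosomal protein promoters (5.26%). The GC-box GGGCGG was in 63.2% of member promoters against 72.0%, the YY1 motif AAGATGG in 10.5% against 8.06% and the NF-Y motif CCAAT in 26.3% against 37.2%. These shares are descriptions with no test.

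**Figure D5:**
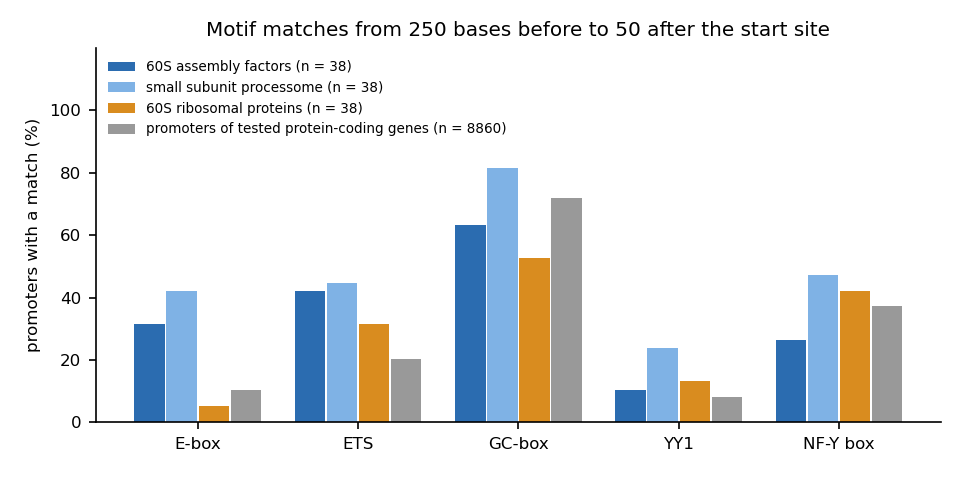
Share of 300-base promoter windows with at least 1 match, for 5 motifs and 4 sets of genes. The 60S assembly factors have an E-box in 31.6% of windows and an ETS motif in 42.1%, against 10.3% and 20.4% of tested protein-coding genes.

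Windows of 30 bases around matches near the start are printed 5′ to 3′ on the gene's strand, with the motif in capitals. They cover the called genes with such a match and, as examples, 5 other members with an E-box. The examples are not the nearest: DDX54 has its E-box 61 bases before the start. E-boxes of TEX10 (30 before), MDN1 (27 after) and NOP2 (35 after, not tested) are not printed. TEX10 had ratios of only 1.07 and 1.09. Those of SDAD1 (228 before), SURF6 (224 before) and the called gene EBNA1BP2 (237 before) are also not printed. For PES1 at chr22:30591880-30591909, DDX54 at chr12:113185522-113185551, MRTO4 at chr1:19251807-19251836, NOC3L at chr10:94362903-94362932, GNL2 at chr1:37595917-37595946 and NLE1 at chr17:35142274-35142303 the capitals are the E-box. For DDX21 at chr10:68956099-68956128, NOC2L at chr1:959255-959284 and NOP16 at chr5:176388596-176388625 they are the ETS motif, which in NOP16 overlaps a second match on the opposite strand. In 31 of the 38 promoters the last bases after the RefSeq start occurred near the beginning of a GENCODE transcript of the gene. Those of NOC2L and NLE1 did not, so their start sites are less certain.
PES1: tccttggcagggCACGTGcgggaggaagtg
DDX54: ctcagcggaggtCACGTGgtcaccgcacct
MRTO4: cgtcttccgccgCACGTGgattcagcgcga
NOC3L: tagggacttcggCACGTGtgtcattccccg
GNL2: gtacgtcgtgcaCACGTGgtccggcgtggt
NLE1: ctctttctcctcCACGTGgggacgcaggat
DDX21: tcctgcttcccCCGGAAGtgccttgctacg
NOC2L: gcattctggggCCGGAAGtggggtgcacgc
NOP16: gtgcacgccttCCGGAAGgagtttgttaca

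Among members with a promoter window, the median expression differences were close in those with and without an E-box. Members without a window, among them BOP1, MAK16 and RRS1, are left out of this comparison. Any part of the E-box in the differences was not tested. The median log2 difference of the 11 tested members with one was 0.34 in shUSP16-1 and 0.44 in shUSP16-2, and of the 26 tested without one 0.30 and 0.41. DDX21, with the largest ratios, had no E-box in its window, and PES1, with the next largest in each library, had one 13 bases after the RefSeq start. Over tested protein-coding genes the medians were 0.0999 and 0.119 for 909 with an E-box and 0.0604 and 0.0691 for 7951 without.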

How the data were processed

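The deposited FPKM table holds 58735 genes and 3 libraries of HGC-27 cells, 1 shControl and 2 shUSP16, with n = 1 and 2. The values are FPKM as deposited by the authors. The aligner, counter and filters were not given in the sources used here. Per the labels, total RNA was used. The submitters' processing notes name the builds GRCm38 and mm10, while the gene IDs, lengths and coordinates in the table equal those of human GENCODE v29 for all 58735 genes, so GRCh38 coordinates are given. FPKM times gene length gave whole multiples of 1 read for each library (100.0% of values within a tolerance of 0.01 of a read). The totals these imply were 1.08, 1.01 and 0.994 times the sums of reads in shControl, shUSP16-1 and shUSP16-2. These recovered reads were used for intervals and for voom. Differences were tested with limma 3.58.1 in R 4.3.3 (trend) on log2(FPKM + 1) for the genes whose mean reached 1 FPKM, with Benjamini-Hochberg adjustment over all tested genes. The tests were also run on simulated data, in which the control was given the spread of the 2 shUSP16 libraries. That run cannot show how the tests behave when the spread of the 1 control is unknown. Each ratio's interval is an exact binomial 95% interval. Genes named follow a rule over role groups: up to 4 members per group with the largest difference in the weaker library, members not higher in both, the extremes of level, members called on protein-coding genes, the 3 members whose shUSP16 libraries differ most, up to 2 genes per direction of each other list, USP16 and MYC; further members were named after their values were seen. The members and lists were chosen with earlier results of these data known. Motifs were matched to the RefSeq promoter table.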

Additional observations from a re-analysis of the deposited data

How the results depend on the processing

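The count of members called by limma was 0 in the reported analysis, 2 when only protein-coding genes were tested, 7 by voom with the authors' totals and 7 by voom with sums of reads, and 0 under the other 8 alternatives. These were a pseudocount of 0.1, no filter, a mean of at least 5 FPKM, rescaling to equal totals or by median ratio, no trend, a robust trend and an adjusted p under 0.1. Beside the 1 residual degree of freedom, each fit borrows prior degrees of freedom from the other genes. These were 4.05 in the reported fit, 6.01 at a mean of at least 5 FPKM and 9.81 on protein-coding genes. In voom they were 18.7 with the authors' totals and 27.1 with sums of reads. The voom p-values thus lean most on the spread of other genes. The cause of the higher counts was not tested. Over all tested genes the calls were 0 in limma, 48 on protein-coding genes (17 higher, 31 lower), 13 at a mean of at least 5 FPKM, 348 by voom with the authors' totals (204 higher, 144 lower) and 557 with sums of reads (139 higher, 418 lower). The number of members at least 1.5-fold higher in both was 3, but 22 at 25% higher and 0 at 2-fold. It was 5 without shUSP16-2 and 11 without shUSP16-1, and the shares of all tested genes in those cases were not counted. The median difference in shUSP16-2 was 0.44 and fell to 0.33 when reads were scaled by their sums. Directions that turned: BRIX1 was 0.13, and ran from -0.05 (without shUSP16-2) to 0.32 (without shUSP16-1). SURF6 was 0.02, and -0.04 with equal totals, -0.02 with median ratio scaling and -0.08 by voom with sums of reads. DDX55 was -0.02 by voom with sums of reads. The differences of the other 41 tested members kept their sign under each alternative run. The genes of the other lists, USP16 and MYC were not run under all of these alternatives. No paired analysis was possible because there is 1 control library and the shUSP16 libraries have no partner in it. With 1 residual degree of freedom and 1 control, a difference from the spread of that one library cannot be told apart from a difference due to the shUSP16 label.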
